A study of Homo sapiens with 9 samples.

Results

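Plasmin is the protease that dissolves fibrin and also cleaves matrix proteins around cells. It is made from plasminogen by the activators uPA (urokinase, gene PLAU) and tPA (PLAT), and the receptor uPAR (PLAUR) holds urokinase on the cell surface. Serpins, which trap proteases in a covalent complex, restrain the system, while tissue factor (F3) starts clotting on the cell surface and TFPI and thrombomodulin (THBD) hold it in check. In liver, hepatocytes are the known source of plasma plasminogen and of its main plasma inhibitor, alpha-2-antiplasmin (SERPINF2).

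The 9 genes described here are SERPINE2, SERPINF2, PLAU, PLAUR, PLAT, PLG, F3, THBD and TFPI, taken by symbol from the 58219 gene identifiers of the count files. They were measured by RNA sequencing in PLC/PRF/5, a human hepatoma cell line that stably expressed the Src family kinase YES, in its wild-type form in 4 samples and in 5 samples carrying T348I, a change at the gatekeeper residue of the drug pocket. Each of the 9 samples had 100 nM dasatinib, which blocks ABL and Src family kinases, so every comparison is T348I against wild type with the drug present, and untreated cells were not analysed here. Gatekeeper mutations are known to weaken the binding of such drugs. The drug is spelled dasatinib in the titles of 3 wild-type and 3 T348I samples, and Dasa in those of the other 1 wild-type and 2 T348I samples. These spellings are taken as a dasatinib set and a Dasa set, which the labels do not call batches. The sources used here do not give the length of treatment, the promoter that drives YES or whether a line is 1 clone.

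Samples held 10381142 to 15799059 reads in genes. The sets stood apart, with 58.6% of tested genes called different between them. YES1, the gene of the expressed kinase, stood at 340 to 367 CPM in wild-type samples. In T348I samples it stood at 552 to 604 CPM in the dasatinib set and at 972 and 1030 CPM in the Dasa set. These counts per gene do not separate introduced YES from the cells' own. CPM are reads per 1000000 reads of the TMM-scaled library. Of the hepatocyte markers, APOB, SERPINA1, HNF4A, AFP and APOH were expressed, and in wild-type samples ALB was low (3.94 ± 0.477 CPM, SD, n = 4) and TTR near 0 (0.225 ± 0.106 CPM, SD, n = 4). In these bulk samples, fewer cells expressing a gene and less RNA per cell cannot be told apart.

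With T348I, both plasminogen activators, the urokinase receptor, thrombomodulin, tissue factor and SERPINE2 were higher, TFPI was slightly higher, and SERPINF2 was lower. In the edgeR test at an adjusted p of 0.05, 7 of the 8 tested genes were called higher and 1 lower, and PLG was too low to test. Over all 14617 genes tested, 42.5% were called, 20.7% higher and 21.8% lower. A rise of at least 2-fold was called in 2.43% of tested genes and a fall of at least 2-fold in 1.14%. SERPINE2, PLAT and THBD reached the filter for low counts only through T348I samples, so a count over the tested genes does not describe the whole group. The plot of the 9 genes by sample shows each value.

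**Figure D1:**
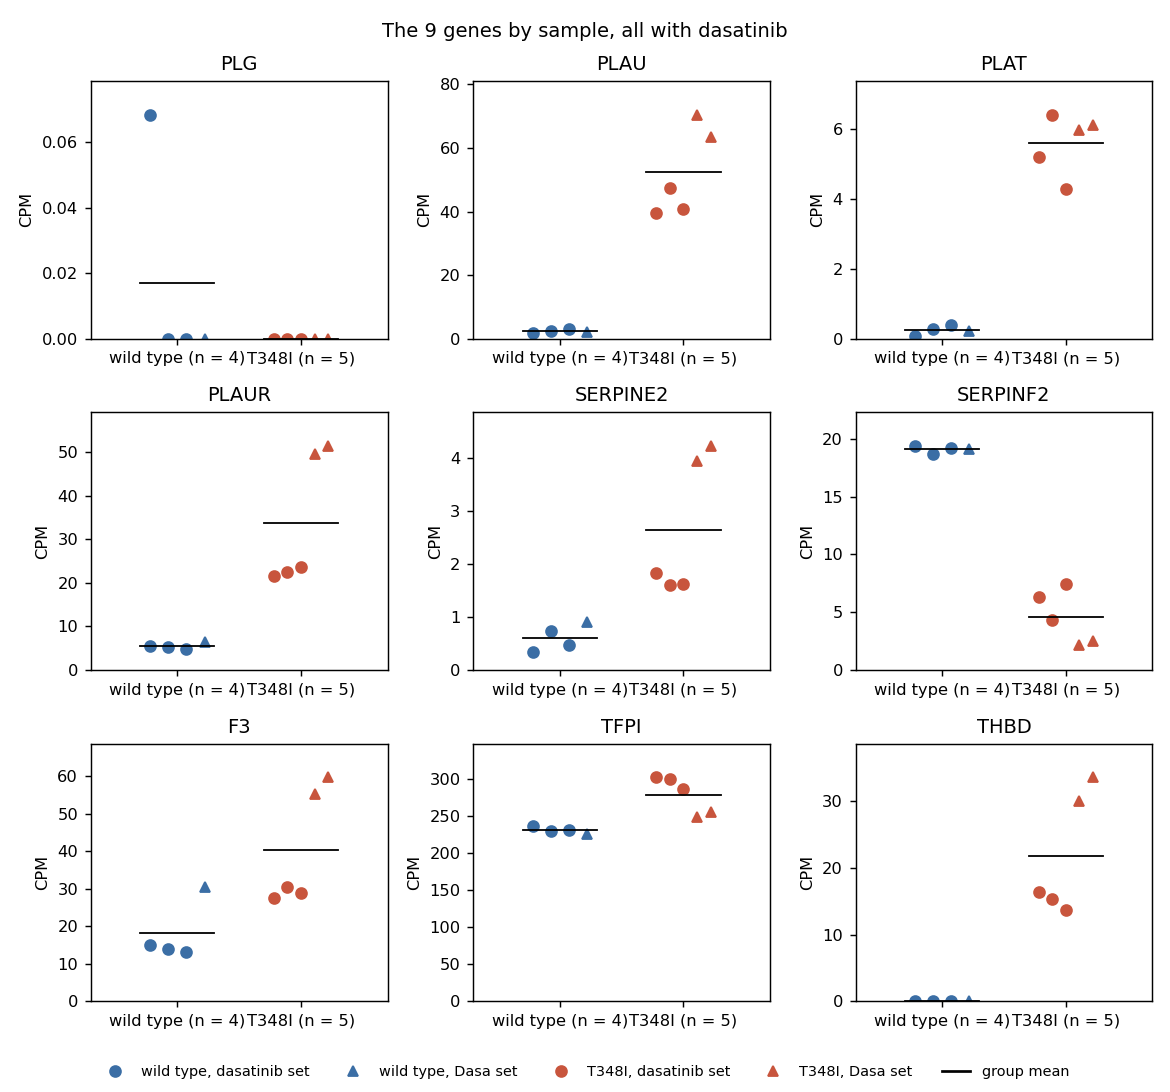
CPM (vertical axis, linear from 0, scaled per gene) of the 9 genes in wild-type (blue, n = 4) and T348I (red, n = 5) samples, with circles for the dasatinib set, triangles for the Dasa set and a line at each group mean. In all panels but those of PLG and F3 the groups do not overlap, and for PLAU, PLAUR, SERPINE2, F3 and THBD the T348I samples of the Dasa set lie above those of the dasatinib set.

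The substrate of the system, plasminogen, was all but undetected. PLG (chromosome 6, 160702238 to 160753315 in GRCh38, plus strand) had 1 read, in wild-type dasatinib replicate 1, and 0 reads in the other 8 samples. A count of 0 over the 5 T348I samples allows up to 0.0457 CPM, counting error only. No difference was detectable at this depth. A two-sided exact permutation test on log2(CPM + 0.5) gave p = 0.889, computed by doubling the smaller tail. The least that 4 against 5 samples then allow is 0.0159, but with 1 read in all, p depends only on which group held it. The test could therefore not have shown a difference.

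Both plasminogen activators rose. PLAU (chromosome 10, 73909177 to 73917497, plus strand) stood at 1.91, 2.55 and 3.04 CPM in the wild-type dasatinib samples and 2.12 CPM in the wild-type Dasa sample. In T348I samples it stood at 39.7, 47.6 and 40.7 CPM in the dasatinib set and at 70.5 and 63.6 CPM in the Dasa set. Every T348I sample was thus far above every wild-type sample. This was 4.34 ± 0.124 on the log2 scale (± standard error), or 20.3-fold (edgeR adjusted p = 1.02e-15). The gene overlaps C10orf55 on the other strand. The counts used are of the sense strand, and counts without regard to strand gave 4.43.

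PLAT (chromosome 8, 42175233 to 42207724, minus strand), the activator best known from endothelium, held 13 reads over the 4 wild-type samples and 373 over the 5 T348I samples. Its levels were 0.0683, 0.274, 0.405 and 0.227 CPM in wild-type samples, the last in the Dasa set. In T348I samples they were 5.19, 6.41 and 4.30 CPM, and in the Dasa set 5.98 and 6.12 CPM. The groups did not overlap, and the 2 sets of T348I samples did. The log2 fold was 4.47 ± 0.277 (edgeR adjusted p = 1.49e-10), and the ratio of pooled CPM was 23.5, with a 95% exact interval of 13.6 to 44.5 for counting error alone.

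The receptor rose less than its ligand. PLAUR (chromosome 19, 43646095 to 43670547, minus strand) stood at 5.40, 5.29, 4.93 and 6.51 CPM in wild-type samples. It stood at 21.6, 22.6 and 23.5 CPM in T348I samples of the dasatinib set and at 49.7 and 51.5 CPM in those of the Dasa set. All T348I samples exceeded all wild-type samples, and the Dasa set was the highest. The log2 fold was 2.41 ± 0.110, or 5.33-fold (edgeR adjusted p = 1.43e-12). RN7SL368P lies on the same strand within the gene, so its reads cannot be fully separated from those of PLAUR.

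Because PLAU and PLAUR rose together, the RefSeq sequence before their starts is shown (GRCh38.p14). Each line is the 250 bases before a start, 5′ to 3′ on the gene's strand, and capitals mark a match to the AP-1 motif TGANTCA. For PLAU, with starts at 73910610 and 73911132, the stretch before the second start is given (chr10:73910882-73911131, plus strand), and for PLAUR the stretch before its start at 43670169 (chr19:43670170-43670419, minus strand).
PLAU: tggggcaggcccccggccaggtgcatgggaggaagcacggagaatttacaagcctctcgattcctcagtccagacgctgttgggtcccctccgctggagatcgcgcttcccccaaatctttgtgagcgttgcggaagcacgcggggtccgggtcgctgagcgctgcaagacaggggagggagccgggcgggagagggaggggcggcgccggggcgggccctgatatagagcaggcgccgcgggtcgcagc
PLAUR: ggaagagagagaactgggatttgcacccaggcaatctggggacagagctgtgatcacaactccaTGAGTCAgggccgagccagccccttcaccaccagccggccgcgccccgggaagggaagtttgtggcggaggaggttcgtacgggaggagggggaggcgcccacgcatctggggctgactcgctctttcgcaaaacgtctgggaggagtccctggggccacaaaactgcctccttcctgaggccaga

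PLAUR held 1 match, with its first base at position -186 from the start, and PLAU held 0 in either of its windows. The motif occurs in 7.71% of 35116 RefSeq promoter windows, each of 300 bases with 50 after the start. The SP1 motif GGGCGG occurred 3 times before the second PLAU start and is present in 45.0% of windows. The EGR1 motif GCGNGGGCG occurred once in the PLAUR window, on the opposite strand, and is present in 9.43%. A match is a string of letters and not a measured site.

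The inhibitors moved in opposite directions. SERPINF2 encodes alpha-2-antiplasmin, which inactivates plasmin in blood (chromosome 17, 1742836 to 1755268, plus strand). It was steady in wild-type samples, at 19.4, 18.7 and 19.2 CPM in the dasatinib set and 19.1 CPM in the Dasa set. In T348I samples it stood at 6.34, 4.30 and 7.48 CPM in the dasatinib set and at 2.18 and 2.49 CPM in the Dasa set. All T348I samples lay below all wild-type samples, and the Dasa set lay lowest. The log2 fold was -2.07 ± 0.170 (edgeR adjusted p = 9.9e-09), number 4 from the bottom among the 14617 folds. Hepatocyte markers moved beside it: of 7, 6 were tested, 4 were called lower and 2 were not called. AFP (-0.57), APOH (-0.55), ALB (-0.63) and HNF4A (-0.25) were the lower ones, with edgeR adjusted p from 6.2e-06 for APOH to 0.0137 for ALB, while APOB (-0.03) and SERPINA1 (-0.07) missed the threshold. TTR had 12 wild-type reads and 2 T348I reads. In the dasatinib set by itself AFP (-0.38), APOH (-0.44) and HNF4A (-0.12) were called lower, ALB (-0.43) was not called, and APOB (0.30) and SERPINA1 (0.13) were called higher. The 7 summed to 4180 to 7196 CPM in wild-type and 4396 to 5418 CPM in T348I samples, with APOB the largest. Their part in the fall of SERPINF2 was not tested.

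SERPINE2 encodes protease nexin 1, a cell- and matrix-bound inhibitor of thrombin, urokinase and plasmin (chromosome 2, 223975112 to 224039319, minus strand). It was a low transcript, with 32 reads in all wild-type samples and 177 in all T348I samples. Wild-type levels were 0.342, 0.730 and 0.473 CPM, and 0.908 CPM in the Dasa set. T348I levels were 1.83, 1.60 and 1.63 CPM, and in the Dasa set 3.94 and 4.23 CPM, without overlap with wild type. The log2 fold was 1.92 ± 0.238, or 3.77-fold (edgeR adjusted p = 2.43e-06).

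Among the clotting genes, thrombomodulin changed from almost no reads to a clear signal. THBD, the surface receptor that turns thrombin toward activation of protein C, is a gene without introns (chromosome 20, 23045633 to 23049741, minus strand). It had 0, 1 and 0 reads in the wild-type dasatinib samples and 1 read in the wild-type Dasa sample. In T348I samples it stood at 16.3, 15.3 and 13.7 CPM in the dasatinib set and at 30.1 and 33.6 CPM in the Dasa set. The ratio of pooled CPM was 595, with a 95% exact interval of 164 to 4920 for counting error alone, and the edgeR adjusted p was 9.53e-16. The fitted log2 fold of 8.68 depends on how so few reads are handled: it was 9.28 without wild-type dasatinib replicate 2, and 8.41 without wild-type dasatinib replicate 3. It ranked number 3 from the top.

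Tissue factor rose by a factor of about 2 within each set. F3 (chromosome 1, 94529225 to 94541800, minus strand), the cell-surface receptor for factor VII, stood at 14.9, 14.0 and 13 CPM in the wild-type dasatinib samples and at 30.4 CPM in the wild-type Dasa sample. In T348I samples it stood at 27.6, 30.5 and 28.9 CPM in the dasatinib set and at 55.3 and 59.8 CPM in the Dasa set. Over both sets the groups overlapped, because the wild-type Dasa sample was as high as the T348I dasatinib samples, while within each set they did not. With the set in the model the log2 fold was 1.0 ± 0.0618 (edgeR adjusted p = 1.42e-10), and it was 1.06 in the dasatinib set alone.

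The 250 bases before the F3 start at 94541759 are shown because they hold the AP-1 motif of the PLAUR stretch above more than once (GRCh38.p14, chr1:94541760-94542009, minus strand, capitals as before).
F3: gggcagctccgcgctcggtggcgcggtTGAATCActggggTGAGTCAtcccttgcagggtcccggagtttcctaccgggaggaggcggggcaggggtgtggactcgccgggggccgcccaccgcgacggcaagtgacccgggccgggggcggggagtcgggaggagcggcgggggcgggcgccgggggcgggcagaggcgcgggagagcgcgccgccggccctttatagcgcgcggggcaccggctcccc

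The F3 matches began at positions -223 and -210, and 0.515% of all windows hold 2 or more. The second has the same letters as the match of PLAUR. F3 also held 4 SP1 motifs, an EGR1 motif at -82 that overlaps the SP1 motif at -78, and the TATA box motif TATAAA on the opposite strand at -28. Promoter windows were read for 6 of the 9 genes, 9 windows in all, and none was read for SERPINF2, PLAT or THBD. Windows on chromosome 8, which holds PLAT, were left out of the search, so a PLAT window was not looked for. The AP-1 motif matched in F3 and PLAUR and in none of the windows of PLAU, TFPI, SERPINE2 or PLG.

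TFPI, the inhibitor of tissue factor with factor VII, changed little. TFPI (chromosome 2, 187464230 to 187565760, minus strand) stood at 237, 230 and 231 CPM in the wild-type dasatinib samples and at 226 CPM in the wild-type Dasa sample. T348I samples of the dasatinib set held 303, 301 and 287 CPM, and those of the Dasa set 249 and 256 CPM. The groups did not overlap, and the T348I samples nearest to wild type were those of the Dasa set. The log2 fold was 0.29 ± 0.0398, or 1.22-fold (edgeR adjusted p = 7.51e-06). An antisense gene, AC007319.1, overlaps TFPI on the other strand.

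Of the tested genes, 6 lay higher in every T348I sample than in every wild-type sample and 1 lay lower in every one, and F3 overlapped. Among the 6, SERPINE2, PLAT and THBD reached the filter for low counts only through T348I samples, so this count favours genes higher there. Over all tested genes the groups did not overlap for 19.6%, with T348I higher for 10.2% and lower for 9.41%. No call was lost in any of the 17 alternatives for any of the 8 genes, and these include leaving out each sample in turn. Leaving out wild-type Dasa replicate 1 takes the fold from the dasatinib set only, so it and the dasatinib set alone are not separate checks.

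Levels of different genes were compared per kilobase of merged exons (GENCODE release 29), a scale that reads low for genes with long exons used by few transcripts. In wild-type samples the order of mean levels was TFPI (19.7 ± 0.366 CPM per kilobase, SD, n = 4), SERPINF2 (8.14 ± 0.126), F3 (6.29 ± 2.87), PLAUR (1.24 ± 0.152), PLAU (0.816 ± 0.170), SERPINE2 (0.0689 ± 0.0286), PLAT (0.0368 ± 0.0210) and THBD (0.0102 ± 0.0118). SERPINF2 and F3 overlapped in this order, as did SERPINE2 with PLAT and PLAT with THBD. In T348I samples TFPI still led (23.8 ± 2.13, n = 5), and PLAU (17.8 ± 4.72) and F3 (14.0 ± 5.48) came next. PLAUR (7.58 ± 3.45) and THBD (5.31 ± 2.27) followed, ahead of SERPINF2 (1.94 ± 0.992), PLAT (0.846 ± 0.130) and SERPINE2 (0.298 ± 0.149). The ranges of TFPI and PLAU, PLAU and F3, F3 and PLAUR, PLAUR and THBD, and SERPINF2 and PLAT overlapped. These orders pool both sets. In the wild-type Dasa sample F3 (10.6 CPM per kilobase) was above SERPINF2 (8.15), and in the T348I Dasa samples PLAU (23.9 and 21.5) and TFPI (21.3 and 21.9) overlapped, while in those of the dasatinib set TFPI was above PLAU in every sample. SERPINF2 lay below THBD in every T348I sample and above it in every wild-type sample.

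**Figure D2:**
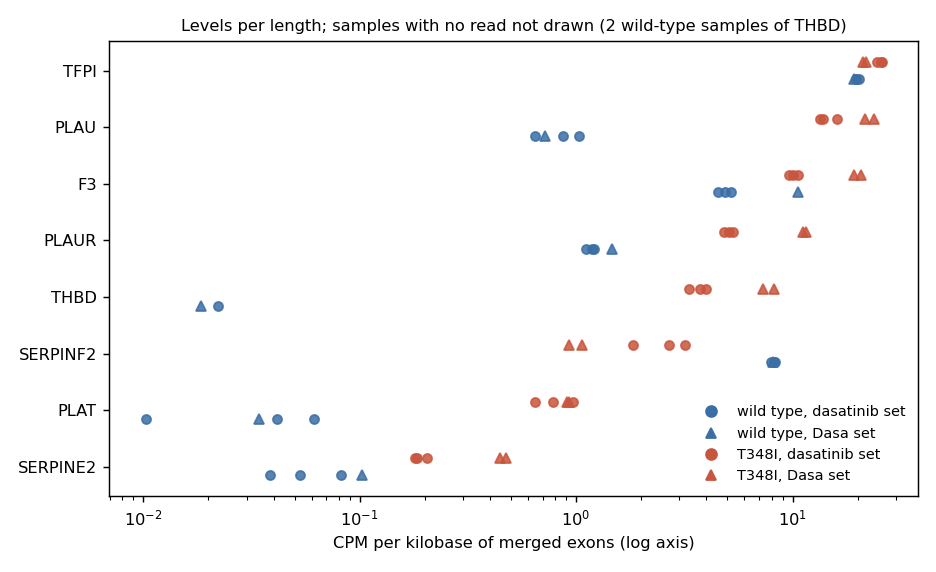
CPM per kilobase of merged exons (horizontal log axis) for 8 of the genes, ordered by their T348I mean, with wild-type samples in blue below and T348I samples in red above, and circles and triangles for the dasatinib and Dasa sets. PLAU moves from about the level of PLAUR to among the highest, and SERPINF2 is the one gene whose red points lie left of its blue points.

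Per-length ratios within a sample were taken for 3 pairs of the genes, of which PLAU to PLAT overlapped between the groups (16.8 to 62.8 in wild-type and 16.6 to 26.4 in T348I samples). The ratio of F3 to TFPI was 0.230 to 0.256 in wild-type samples of the dasatinib set and 0.371 to 0.413 in T348I samples of that set. In the Dasa set it was 0.548 in the wild-type sample and 0.904 and 0.951 in T348I samples. Within a set the T348I samples were higher, while the wild-type Dasa sample exceeded the T348I dasatinib samples. The ratio of PLAU to its receptor gene PLAUR was 0.492 to 0.931 in wild-type samples and 1.87 to 3.18 in T348I samples, with no overlap.

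The size of the T348I effect was compared between the sets with an interaction term, which takes the 1 wild-type Dasa sample to vary like the other samples. It was called for 2 of the 8 genes, against 7.33% of all tested genes. SERPINF2 in T348I samples was 0.316 of wild type in the dasatinib set and 0.122 in the Dasa set, a log2 difference of -1.33 ± 0.250 (edgeR adjusted p = 0.000374). PLAUR was 4.34 times wild type in the dasatinib set and 7.78 times in the Dasa set, a log2 difference of 0.84 ± 0.185 (edgeR adjusted p = 0.00251). PLAU, at 17.0 and 31.6 times wild type, did not pass the test (log2 difference 0.88 ± 0.332, edgeR adjusted p = 0.108). Nor did TFPI, at 1.28 and 1.12 times wild type (log2 difference -0.19 ± 0.0638, edgeR adjusted p = 0.0588). Ratios of SERPINE2 were 3.28 and 4.50, of PLAT 21.3 and 26.7 and of F3 2.07 and 1.89, and none of these differences was called. YES1 itself was 1.66 and 2.72 times wild type in the sets. Its part in these differences was not tested.

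**Figure D3:**
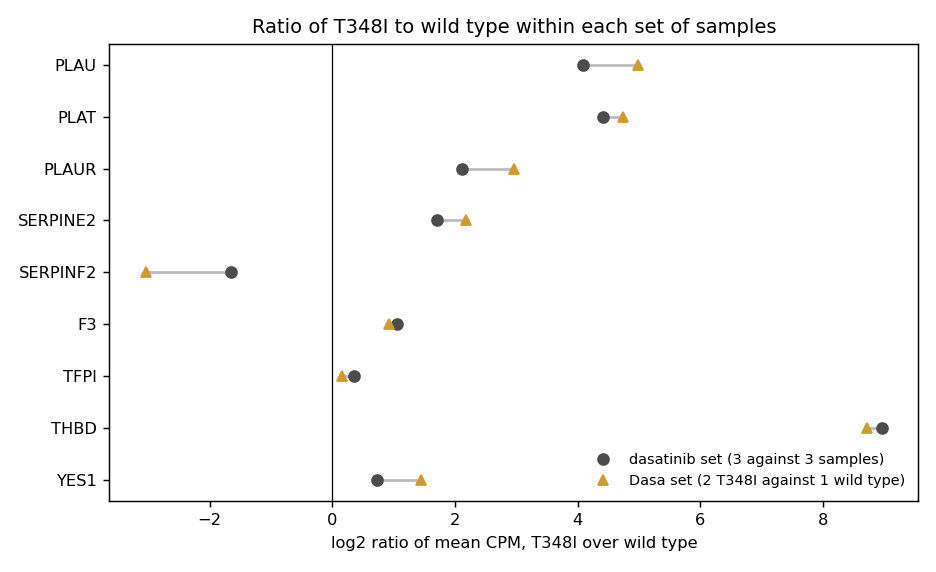
Log2 ratio of mean CPM, T348I over wild type (horizontal axis), for 8 genes and YES1 in the dasatinib set (circles, 3 against 3 samples) and the Dasa set (triangles, 2 against 1). Each gene keeps its direction in both sets, and the gap between the symbols is widest for SERPINF2, whose ratios were 0.316 and 0.122.

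Between the sets, with genotype in the model, 6 of the 8 genes differed, 5 higher and 1 lower in the Dasa set, where 58.6% of all tested genes did, 29.7% higher and 29% lower. SERPINE2 (1.20 on the log2 scale, Dasa over dasatinib), THBD (1.08), F3 (1.03), PLAUR (1.02) and PLAU (0.59) were higher in the Dasa set, with edgeR adjusted p from 5.1e-11 for F3 to 4.78e-05 for SERPINE2. For PLAU this was seen in T348I samples only, as the wild-type Dasa sample (2.12 CPM) lay within the wild-type dasatinib samples (1.91 to 3.04 CPM). Wild-type THBD had too few reads to compare the sets. TFPI was lower (-0.16, edgeR adjusted p = 0.00314). Its wild-type Dasa sample held 226 CPM, beside 230 to 237 CPM in wild-type dasatinib samples. The gap was larger in T348I samples, at 249 and 256 CPM beside 287 to 303 CPM. PLAT (0.16, edgeR adjusted p = 0.481) and SERPINF2 (-0.42, edgeR adjusted p = 0.0572) did not pass. Without wild-type Dasa replicate 1 the set difference of SERPINF2 was -1.33 and was called, but it then compares T348I samples only. In wild-type samples the sets did not differ in SERPINF2, as the Dasa sample (19.1 CPM) lay within the dasatinib samples (18.7 to 19.4 CPM). Genes of the mitochondrial genome took 7.38% to 9.44% of gene reads in the dasatinib set and 15.2% to 17.0% in the Dasa set, and their part in these differences was not tested.

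Genes that act beside these 9 were taken from 6 lists, 44 genes in all. Of 36 tested, 8 rose and 19 fell, where 20.7% of all tested genes were called higher and 21.8% lower. These shares also apply to the counts of each list below. Medians by list are given below, beside a median log2 fold of -0.01 over all tested genes. The falls rested in part on wild-type Dasa replicate 1: without it 12 of the 36 were called lower. Leaving it out means that the fold comes from the dasatinib set only. The count of 12 in the dasatinib set by itself is therefore not a separate check. The plot of folds by role gives every tested gene.

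**Figure D4:**
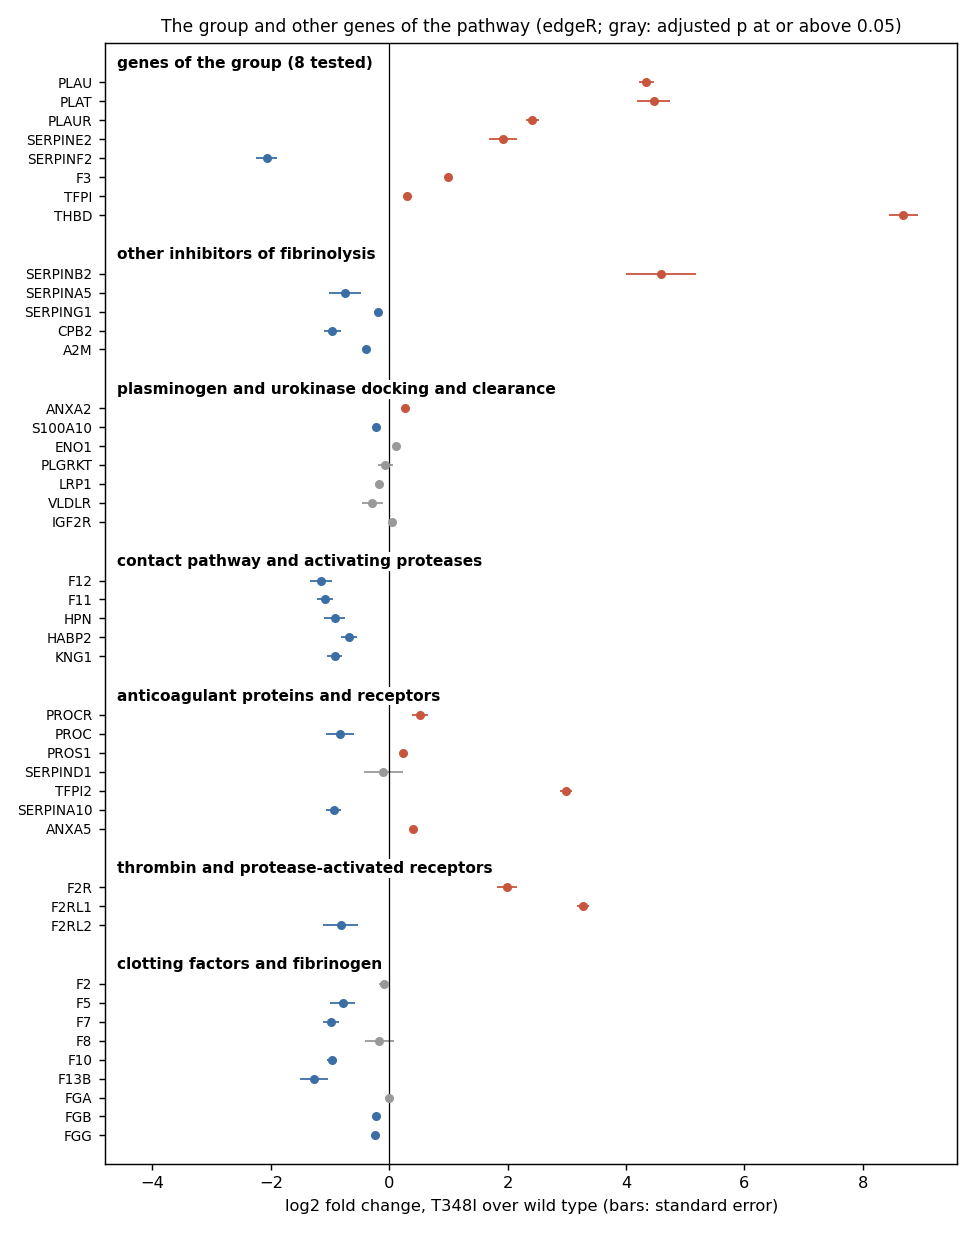
Log2 fold change of T348I over wild type (horizontal axis) with standard error bars, for the 8 tested genes and 36 other genes of the pathway grouped by role. Red points were called higher, blue lower and gray not called (edgeR, 9 samples), and the largest rises outside the group are SERPINB2, F2RL1 and TFPI2.

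Of 5 other inhibitors of fibrinolysis, 1 rose and 4 fell (median log2 fold -0.39, or -0.24 without wild-type Dasa replicate 1). The falls numbered 2 without that sample, and also without T348I Dasa replicate 1. The gene that rose was SERPINB2, which encodes an inhibitor of urokinase and had 3 wild-type reads and 95 T348I reads, a ratio of pooled CPM of 25.9 with a 95% exact interval of 8.60 to 128. SERPINB2 reached the filter in 4 T348I samples, all but Dasa replicate 2, so leaving out any of those 4 took it out of the test and left 0 genes of the list called higher. CPB2, a carboxypeptidase that protects fibrin, fell by 0.96, and A2M, a broad protease trap, fell by 0.39. Without wild-type Dasa replicate 1 their log2 folds were -0.69 and -0.24. SERPINA5, the gene of the protein C inhibitor, was low, at 1.17 ± 0.401 CPM in wild-type and 0.627 ± 0.232 CPM in T348I samples (SD), and fell by 0.75 (edgeR adjusted p = 0.0287). Its call was lost without the set term (-0.90), in the dasatinib set by itself (-0.78), with DESeq2 (-0.75) and with no filter (-0.76). Among wild-type samples, leaving out dasatinib replicate 1 (-0.76) or 2 (-0.68) or the Dasa sample (-0.78) ended the SERPINA5 call. The last of these takes the fold from the dasatinib set only, so it repeats the result of that set by itself. Among T348I samples, leaving out dasatinib replicate 1 (-0.74) or 2 (-0.68) or Dasa replicate 1 (-0.68) did so too.

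Of 7 genes for docking and clearance of plasminogen and urokinase, 1 rose, 1 fell and 5 were not called (median -0.07, or -0.01 without wild-type Dasa replicate 1). ANXA2 and S100A10 encode the 2 partners of a surface complex that binds plasminogen and tPA. ANXA2 rose by 0.27 (742 ± 75.3 CPM in wild-type and 874 ± 37.2 CPM in T348I samples, SD) and lost its call without the set term (0.24). S100A10 fell by 0.22, from 432 ± 20.3 to 373 ± 6.51 CPM. LRP1, the clearance receptor for urokinase complexes, had a fold of -0.17 (edgeR adjusted p = 0.0577) and ENO1 one of 0.12 (edgeR adjusted p = 0.0735). With wild-type dasatinib replicate 1 left out LRP1 was called (-0.22), and with T348I dasatinib replicate 1 left out so were LRP1 (-0.23) and ENO1 (0.15). Without wild-type Dasa replicate 1 the folds of LRP1 and ENO1 were -0.01 and 0.03.

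Several genes of the contact pathway, of activating proteases and of clotting factors were lower. The hepatocyte markers AFP, APOH, ALB and HNF4A were also lower, while APOB (-0.03) and SERPINA1 (-0.07) were not called. In the dasatinib set by itself APOB (0.30) and SERPINA1 (0.13) were called higher and ALB was not called (other values beside SERPINF2 above). The part of these markers in the falls was not tested. Of 7 genes of the contact pathway and other activating proteases, 5 were tested and all 5 were called lower (median -0.92, or -0.58 with 4 called without wild-type Dasa replicate 1). F11, the factor XI gene, fell by 1.09, and KNG1, the kininogen gene, fell by 0.92. Their log2 folds were -0.80 and -0.66 without wild-type Dasa replicate 1. F12, the factor XII gene, fell by 1.16, or 0.58 without wild-type Dasa replicate 1. HPN, the gene of the surface protease hepsin, fell by 0.92 and lost its call without that sample (-0.51) and without the set term (-0.71). Of 9 tested clotting factors and fibrinogen chains, 6 fell, 0 rose and 3 were not called (median -0.24), with 4 lower without wild-type Dasa replicate 1. F10 fell by 0.97, F7, whose product binds tissue factor, by 0.98 and F13B by 1.27. Without wild-type Dasa replicate 1 their log2 folds were -0.80, -0.75 and -0.95. The fibrinogen chain gene FGG fell by 0.24, or 0.13 without wild-type Dasa replicate 1, and missed the call when the set was not modelled (-0.27).

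Anticoagulant genes moved both ways, with 4 of 7 tested higher and 2 lower (median 0.23), with 1 called lower without wild-type Dasa replicate 1. TFPI2, a relative of TFPI that inhibits plasmin, went from 3.89 ± 0.967 CPM in wild-type to 33.2 ± 8.81 CPM in T348I samples (SD), a log2 fold of 2.99 ± 0.0957 (edgeR adjusted p = 5.26e-15). PROS1, the protein S gene, rose by 0.23 and ANXA5, which encodes annexin A5 that covers phosphatidylserine, by 0.41. ANXA5 was not called without the set term (0.35). SERPINA10, the gene of an inhibitor of factor Xa, fell by 0.94, or 0.61 without wild-type Dasa replicate 1.

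Receptors for the clotting proteases also changed, with 2 of 3 tested higher and 1 lower (median 1.99). F2RL1, which encodes the protease-activated receptor PAR2, went from 3.51 ± 0.663 CPM in wild-type to 34.2 ± 3.09 CPM in T348I samples (SD), a log2 fold of 3.28 ± 0.106 (edgeR adjusted p = 5.83e-15). F2R, the thrombin receptor PAR1, had a log2 fold of 1.99 ± 0.167 (edgeR adjusted p = 1.39e-08). F2RL2, the gene of PAR3, fell by 0.82 (edgeR adjusted p = 0.0299). Its call was lost with the replicate block (-0.72) and without the set term (-0.84), and without wild-type Dasa replicate 1 its fold was -0.35. Leaving out wild-type dasatinib replicate 1 (-0.79), T348I dasatinib replicate 1 (-0.65) or T348I Dasa replicate 1 (-0.76) or 2 (-0.67) also ended the F2RL2 call, and without T348I dasatinib replicate 2 its fold was -1.30.

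Several of the 9 genes are known from endothelium, so markers of other cell types were read beside them. The 6 endothelial markers summed to 1.37 to 3.56 CPM in wild-type and 1.80 to 3.93 CPM in T348I samples. Without PECAM1 they came to at most 0.605 CPM in any sample, KDR had 0 reads in all wild-type samples, and TEK and ERG had 0 reads in all T348I samples. Of 5 leukocyte markers, LYZ was abundant in both groups (wild type 1153 ± 134 CPM, T348I 1138 ± 303 CPM, SD), and the other 4 summed to 0.182 to 0.612 CPM. Fibroblast and stellate markers other than COL1A1 summed to 0.410 to 1.59 CPM. COL1A1 rose by 0.52 (edgeR adjusted p = 0.00485), and its part in the results was not tested. Platelet markers summed to 1.37 to 1.64 CPM in wild-type and 1.44 to 2.59 CPM in T348I samples, with GP9 at 0 in all. Among them PF4 was too low to test, with 11 wild-type and 55 T348I reads. Its levels were 0.232 ± 0.280 and 0.838 ± 0.251 CPM (SD), and the groups overlapped.

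For the tested genes, neighbours with the most similar log2 CPM over the 9 samples were found by Pearson's r among genes whose mean log2 CPM reached 1. These values describe samples that share genotype and set, which alone align many genes. SQOR (r = 0.997) was among the nearest to PLAU, and PLAU itself (0.991) and LBP (0.987) were nearest to PLAT. NT5E (0.998) and PXN (0.998) were nearest to PLAUR, and ACSL5 (0.998) and RGS2 (0.998) to THBD. RIN1 (0.992) and NES (0.990) were nearest to SERPINE2, MAP3K14 (0.996) and PLEKHG2 (0.995) to F3, and KLC4 (0.992) and TLCD2 (0.990) to SERPINF2. TFPI had the loosest neighbours, AGT (0.968) and IQCD (0.961). Among the 8 genes, THBD and PLAU were closest (r = 0.994), PLAUR and SERPINF2 were most opposed (-0.980), and TFPI and F3 were least alike in size of r (0.359).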

How the data were processed

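The authors deposited raw read counts per gene, 1 file per sample, and the submitters' processing notes name GRCh38, STAR 2.5.1b, Trimmomatic 0.35 and CASAVA 1.8.2. The annotation release is not given in the sources used here. The libraries were stranded and polyA-selected, per the labels' protocols, and column 4 of the deposited counts was used as the sense strand, since the opposite-strand column held only 5.48% to 5.91% as many gene reads. Rows that name no gene held 22.2% to 29.8% of a sample's reads and were left out. Symbols came from a table of gene names (57437 of 58219 identifiers matched), and coordinates and exon lengths from GENCODE release 29, where all 9 genes had the same version number.

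Counts were tested with edgeR 4.0.16 in R 4.3.3: filterByExpr (about 10 reads in at least 4 samples), TMM, the quasi-likelihood F-test with set and group, and Benjamini-Hochberg adjustment over 14617 genes. Standard errors come from the fold and F statistic. DESeq2 1.42.0 was an alternative, with other scalings, filters, strand column, sets and left-out samples. The genes and lists were chosen with earlier results of these data known. Named genes are the 9, YES1, up to 4 per list by smallest p, and the 2 most alike in profile, except a gene that is not reported here. COL1A1, LYZ and single markers are given as markers. Intervals and floors of 3 reads hold for counting error alone, as PCR reads carrying no molecular identifier are not separate molecules. The labels do not say that samples were separate cultures, so p-values measure only how these samples vary, and that spread may be technical. In data simulated for this comparison (14624 genes tested), 50 genes were changed at each fold. The test recovered 46% of genes changed 1.2-fold, 86% of 1.5-fold, 96% of 2-fold and 100% of 4-fold changes. It made 9 false calls among 173. The simulation held no difference between the sets and took each gene's dispersion from a trend. In the real samples 58.6% of tested genes differed between the sets, so these rates may not hold for them.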

Additional observations from a re-analysis of the deposited data

Results flagged for a closer look

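In 10 of 64 groups of samples examined, 1 sample stood far from the rest of its group, where chance gives about 1 in 20. That rate takes the samples of a group to be alike, while the wild-type group holds 3 samples of the dasatinib set and 1 of the Dasa set, and 58.6% of all tested genes differed between the sets. In 9 of the 10 it was the wild-type Dasa sample. It held more F3 (30.4 CPM, others 13 to 14.9), A2M (1775, others 1362 to 1414), LRP1 (104, others 48.1 to 53.0), KNG1 (22.9, others 12.6 to 13) and HPN (10.2, others 2.77 to 3.28). It held less ANXA2 (630 CPM, others 769 to 795), ENO1 (1253, others 1683 to 1734), ANXA5 (285, others 394 to 410) and F10 (33.4, others 41.6 to 42.8). Wild-type dasatinib replicate 1 held more F13B (3.35 CPM, others 2.37 to 2.43).

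For 15 of 32 genes the T348I fold differed between the sets by the edgeR interaction test, against 7.33% of all 14617 genes tested. Most of the 32 were named for the smallest p of the T348I effect in their lists, so these shares are not of like genes. Besides SERPINF2 (log2 difference -1.33, Dasa minus dasatinib) and PLAUR (0.84), the fold was greater in the Dasa set for YES1 (0.71), ENO1 (0.30), ANXA5 (0.26) and ANXA2 (0.21). It was lower in the Dasa set for F12 (-1.54), SERPINA10 (-1.01), F11 (-0.99), CPB2 (-0.99), KNG1 (-0.68), F10 (-0.58), A2M (-0.48), LRP1 (-0.42) and FGG (-0.33). The adjusted p values ran from 2.31e-09 for YES1 to 0.0322 for ANXA2. The Dasa set has 1 wild-type sample, and the spread of that sample cannot be measured.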

How the results depend on the processing

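The calls of all 8 tested genes held in all 17 alternatives, and no fold changed sign. The dasatinib set alone and the fit without wild-type Dasa replicate 1 both take the fold from the dasatinib set, so they are not separate checks. Log2 folds ranged from 1.74 to 2.12 for SERPINE2, -2.30 to -1.70 for SERPINF2, 4.11 to 4.55 for PLAU, 2.12 to 2.61 for PLAUR, 4.04 to 4.88 for PLAT, 0.96 to 1.16 for F3, 8.41 to 9.28 for THBD and 0.27 to 0.36 for TFPI. With DESeq2 the interaction was again called for SERPINF2 (-1.35) and PLAUR (0.84), and SERPINE2 and PLAT had no adjusted p. Leaving the set out of the model gave 1234 higher and 1116 lower genes over the whole table, against 3029 and 3183, and other pathway genes numbered 5 higher and 11 lower, against 8 and 19. The dasatinib set alone left 12 of those lower, and leaving out 1 sample at a time left 12 to 19. With no filter the median of the anticoagulant list was -0.10. Numbers in the titles are shared between groups, so a replicate block was fitted: it called 7 genes higher (PLAU 4.34) and 1 lower, and 5372 genes in all. Same-numbered samples did not deviate together (correlations -0.08 to 0.0033 over 3 pairs), so the numbers were not taken to pair samples. Depth limits PLG, SERPINB2 and the wild-type levels of THBD and PLAT, which rest on 1 to 13 reads.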
